A study of Mus musculus with 12 samples.

Results

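Cell cycle and DNA replication genes were examined in mouse embryonic fibroblasts (MEFs), connective tissue cells grown in culture, that carry or lack subunits of the transcription factor NF-κB. The genes were taken from a list of 45, of which 24 act in G1 or S phase (the G1/S members) and 21 in G2 phase or mitosis (the G2/M members). A listed gene was kept if a probe carrying its symbol was above background, with a detection p-value under 0.05, in both replicates of 1 or more of the 6 groups, and its brightest such probe was used. In all, 36 of the 45 genes were kept, 22 G1/S and 14 G2/M members, among 10031 features tested on the array. The annotation used here named no probe for Ccnb1, Cdk4, Mki67 and Aurkb, and the probes of Ccnb2, Bub1, Kif20a, Cenpe and Pole2 did not pass the detection filter. Of the 36 genes kept, 34 were above background on all 12 arrays, Plk1 on 8 and Ccna2 on 6.

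The MEFs were C57BL/6 and of 3 genotypes. WT cells have all subunits, Rela-/-Nfkb2-/- cells lack RelA and the p100 precursor, and Rela-/-Relb-/-Rel-/- cells lack RelA, RelB and cRel, so that the absence of Rela is shared by both mutant lines. Cells of each genotype were left untreated or were given tumor necrosis factor (TNF), an inflammatory cytokine, at 10 ng/ml for 6 h when nearly confluent, and total RNA of each of the 6 groups was hybridized to 2 Illumina MouseRef-8 arrays. No source says whether the 2 arrays of a group came from separate cultures, so p-values measure the spread between arrays, which may be technical. The MEFs had been immortalized by serial passage, and where a genotype is a single line, genotype and line cannot be told apart.

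Between 11637 and 12599 of 25697 probes passed the detection threshold on an array. The Rela probe read 12.60 to 13.22 on the log2 scale in WT cells and 10.05 to 10.80 in the mutant lines, the Relb probe was above background on 1 of 4 Rela-/-Relb-/-Rel-/- arrays, the Nfkb2 probe was above background on all 12 arrays (7.23 to 8.83 in Rela-/-Nfkb2-/- cells), and the Rel probe on 0. Whether these probes lie inside the deleted parts is not known here, so a signal does not check the labels. Of 9 fibroblast markers with a probe, 9 were above background on at least 1 array and 6 on all 12, with Pdgfrb on 9, Thy1 on 4 and Postn on 3. Their summed log2 signal was 99.5 to 107.2 in Rela-/-Nfkb2-/- cells, 85.4 to 86.6 in WT and 80.8 to 85.8 in Rela-/-Relb-/-Rel-/- cells. Of 5 leukocyte markers 2 were above background on at least 1 array (Cd14 on all 12 arrays and Lyz2 on 1), with Ptprc and Itgam on 0. Of 4 endothelial markers Kdr was above background on 12 arrays and Tek on 10, with Pecam1 and Cdh5 on 0. The epithelial keratin probes Krt8 and Krt14 were above background only on the 4 Rela-/-Relb-/-Rel-/- arrays, where the summed log2 signal of the epithelial list was 32.9 to 33.4, against 21.2 to 21.8 on the other 8. That gap rests on Krt8 and Krt14, since Krt18 was above background on 0 arrays and Cdh1 on all 12, at 6.24 to 6.74. Paired arrays of a mutant group stood further apart than those of WT cells, with an SD of the difference between replicates, over all features, of 0.46 to 0.67 against 0.27 and 0.30.

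Cells enter S phase when cyclins of the D and E types, bound to their kinases, phosphorylate the retinoblastoma protein and free E2F factors, which switch on the genes of DNA replication. During G1 the factors Cdc6 and Cdt1 load the Mcm2-7 helicase onto replication origins, and in S phase nucleotide enzymes such as ribonucleotide reductase and thymidine kinase supply the building blocks. A later wave of genes, controlled through the CHR and CCAAT elements by the DREAM and MuvB-FoxM1 complexes, encodes the mitotic machinery, including Cdk1 with its cyclins, Plk1, Cdc20, the kinesins and the spindle checkpoint. Growth-arrested or dense fibroblasts are known to hold both waves low.

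Elements tied to each wave were found in some of the promoters. RefSeq windows of 300 bases (build GRCm38.p6, 250 bases before to 50 after the start of a gene) were matched by symbol to 30 of the 36 genes and searched on both strands for E2F elements (TTTCCCGC, TTTGGCGC, TTTCGCGC or TTTGCCGC), the CHR element (TTTGAA or TTCGAA), the CCAAT box and, by name, the kappaB element that NF-κB binds. E2F elements were found in 7 of 18 G1/S windows (38.9%) and 1 of 12 G2/M windows (8.33%), against 2.33% of all 27025 windows. The CHR element was found in 10 of 12 G2/M windows (83.3%) and 3 of 18 G1/S windows (16.7%), against 19.5% of all windows. All 10 of these G2/M windows also held a CCAAT box, a combination found in 7.73% of all windows. The CCAAT box by itself was not limited to this class, being in 10 of 18 G1/S windows (55.6%), against 38.0% of all windows. A kappaB match was present in 2 of 18 G1/S and 3 of 12 G2/M windows, against 8.19% of all windows. Such a match is a description of letters and not a measured site. The windows of 3 G2/M genes and 2 Mcm genes are shown because they carry the elements of their class, which are in capitals: CHR elements and CCAAT boxes in the first group, and E2F elements and CCAAT boxes in the second, where overlapping E2F matches run together.
Cdc20, chr4:118437294-118437593, minus strand: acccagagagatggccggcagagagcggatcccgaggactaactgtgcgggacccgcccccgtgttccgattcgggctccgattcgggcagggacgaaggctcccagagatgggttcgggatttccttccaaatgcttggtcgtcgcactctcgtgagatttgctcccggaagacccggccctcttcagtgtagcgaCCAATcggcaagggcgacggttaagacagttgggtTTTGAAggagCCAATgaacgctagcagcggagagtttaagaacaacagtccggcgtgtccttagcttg
Cenpa, chr5:30666636-30666935, plus strand: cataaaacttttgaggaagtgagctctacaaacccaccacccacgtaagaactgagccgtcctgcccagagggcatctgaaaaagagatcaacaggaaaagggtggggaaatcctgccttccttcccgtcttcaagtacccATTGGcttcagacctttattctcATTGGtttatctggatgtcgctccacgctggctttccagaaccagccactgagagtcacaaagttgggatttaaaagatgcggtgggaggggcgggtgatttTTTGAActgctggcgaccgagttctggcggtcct
Kif11, chr19:37376132-37376431, plus strand: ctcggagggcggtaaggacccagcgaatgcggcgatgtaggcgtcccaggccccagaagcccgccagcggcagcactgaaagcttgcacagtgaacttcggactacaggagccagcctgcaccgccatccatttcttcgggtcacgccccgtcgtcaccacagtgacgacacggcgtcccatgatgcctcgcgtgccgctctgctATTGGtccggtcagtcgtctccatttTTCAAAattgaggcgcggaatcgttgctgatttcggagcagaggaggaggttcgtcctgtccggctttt
Mcm5, chr8:75109259-75109558, plus strand: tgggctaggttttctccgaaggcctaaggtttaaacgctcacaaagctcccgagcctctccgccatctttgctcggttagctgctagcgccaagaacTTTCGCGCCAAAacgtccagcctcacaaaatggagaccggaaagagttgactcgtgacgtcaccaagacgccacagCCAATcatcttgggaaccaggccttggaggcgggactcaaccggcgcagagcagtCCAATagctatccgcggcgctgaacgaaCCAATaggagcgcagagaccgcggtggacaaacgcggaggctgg
Mcm6, chr1:128359656-128359955, minus strand: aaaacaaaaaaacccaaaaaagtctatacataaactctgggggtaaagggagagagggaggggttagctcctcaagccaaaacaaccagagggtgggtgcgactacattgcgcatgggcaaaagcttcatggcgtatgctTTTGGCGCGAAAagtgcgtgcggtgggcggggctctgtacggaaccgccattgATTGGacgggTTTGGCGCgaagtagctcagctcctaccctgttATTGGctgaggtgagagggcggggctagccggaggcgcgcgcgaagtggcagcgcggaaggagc
In the Cdc20 window the CHR element starts 18 bases before the transcription start, between CCAAT boxes that start 53 and 8 bases before it. In the Kif11 window the CHR element starts 19 bases before the start, and in the Cenpa window 17 bases after the start of the transcript, counted as position 1.

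In untreated cells the D-type cyclins, which bind Cdk4 and Cdk6 and start the passage through G1, differed between the genotypes in opposite directions. Cyclin D1 (Ccnd1) read 14.51 and 14.37 on the log2 scale in WT cells, 13.80 and 13.64 in Rela-/-Nfkb2-/- cells, and 13.51 and 13.57 in Rela-/-Relb-/-Rel-/- cells. Both mutant lines lay below WT, with log2 differences of -0.72 ± 0.14 (SE, as throughout, adjusted p = 0.00582) and -0.90 ± 0.14 (adjusted p = 8.75e-04). These p-values, like those that follow, come from a limma fit to all 12 arrays and are adjusted by Benjamini-Hochberg over all features. Its 3 probes gave -1.80 to -0.72 in the first comparison and -1.80 to -0.90 in the second. Cyclin D2 (Ccnd2) read 12.34 and 12.34 in WT cells, 13.40 and 13.27 in Rela-/-Nfkb2-/- cells, and 13.66 and 13.62 in Rela-/-Relb-/-Rel-/- cells. It was thus higher in both lines, by 1.00 ± 0.14 (adjusted p = 9.69e-04) and 1.30 ± 0.14 (adjusted p = 9.09e-05), and no array of a mutant line overlapped WT. Cyclin D3 (Ccnd3) read 11.84 and 12.11 in WT cells and 12.93 and 12.79 in Rela-/-Nfkb2-/- cells, a rise of 0.88 ± 0.17 (adjusted p = 0.00506) on its brightest probe and a value of 0.13 on the other. In Rela-/-Relb-/-Rel-/- cells it read 12.47 and 12.26, which did not pass the test against WT but lay below the Rela-/-Nfkb2-/- level (-0.49 ± 0.17, adjusted p = 0.0470). Its 2 probes differed on that last comparison, at -0.49 and 0.32.

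Cyclin E1 (Ccne1), the partner of Cdk2 at the entry to S phase, read 7.63 and 7.66 in untreated WT cells, 6.95 and 7.02 in Rela-/-Nfkb2-/- cells, and 7.40 and 7.50 in Rela-/-Relb-/-Rel-/- cells. It was lower in Rela-/-Nfkb2-/- cells than in WT (-0.66 ± 0.14, adjusted p = 0.00883) and higher in Rela-/-Relb-/-Rel-/- than in Rela-/-Nfkb2-/- cells (0.46 ± 0.14, adjusted p = 0.0291). Cyclin E2 (Ccne2) read 7.63 and 7.68 in WT cells, 8.45 and 7.58 in Rela-/-Nfkb2-/- cells, and 7.58 and 7.43 in Rela-/-Relb-/-Rel-/- cells, with the groups overlapping. E2f1, the transcription factor released by these kinases, was lower in untreated Rela-/-Relb-/-Rel-/- cells than in WT (-0.73 ± 0.16, adjusted p = 0.00683) and than in Rela-/-Nfkb2-/- cells (-0.61 ± 0.16, adjusted p = 0.0187). Its levels there were 11.09 and 11.18, below the 11.56 to 11.92 of the other untreated arrays.

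**Figure D1:**
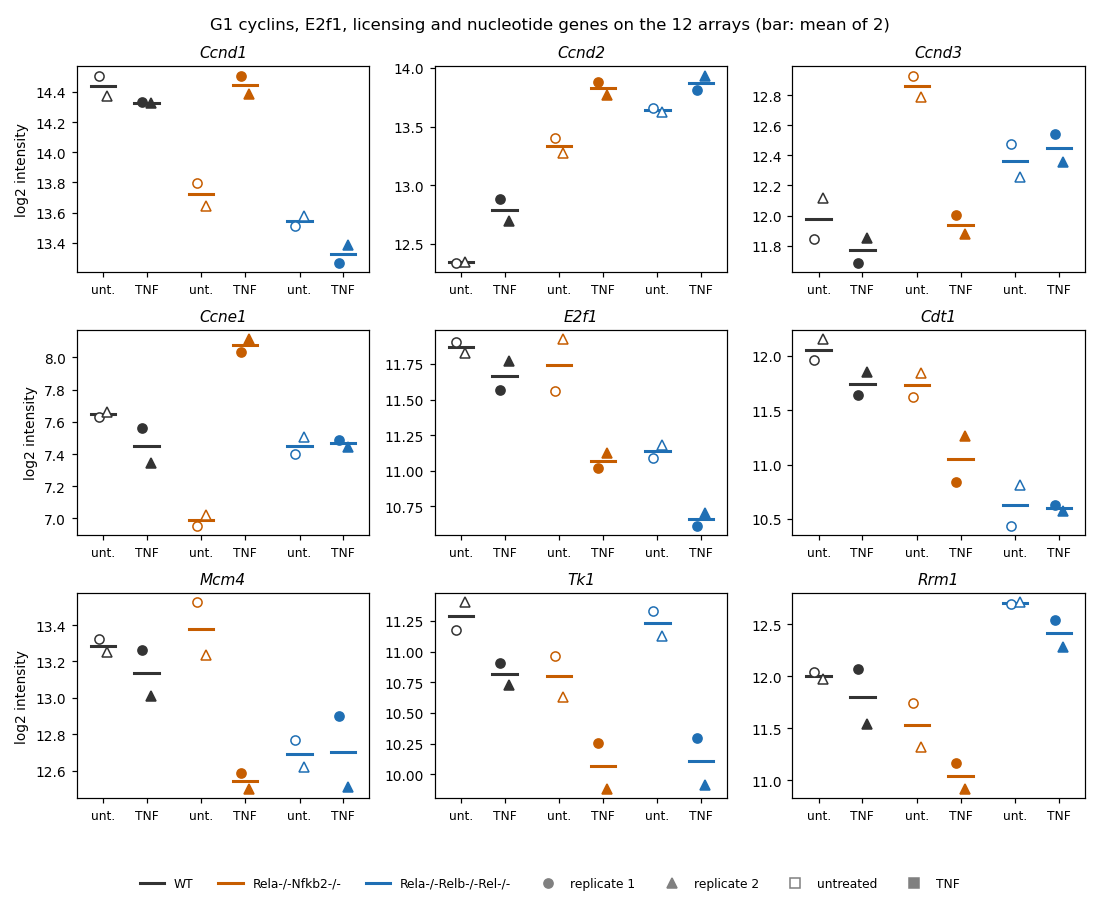
Log2 intensity (y axis) of 9 G1/S members in the untreated (open) and TNF-treated (filled) arrays of each genotype (x axis), with circles for replicate 1, triangles for replicate 2 and a bar at the mean of 2. Ccnd1 and Ccne1 read lower in untreated than in TNF-treated Rela-/-Nfkb2-/- cells, with no such gap in Rela-/-Relb-/-Rel-/- cells, and each panel has its own scale.

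Of the licensing genes, Cdt1 and Mcm4 were lower in Rela-/-Relb-/-Rel-/- cells than in either other genotype. Cdt1, which loads the helicase, read 11.96 and 12.15 in untreated WT cells, 11.62 and 11.85 in Rela-/-Nfkb2-/- cells, and 10.44 and 10.81 in Rela-/-Relb-/-Rel-/- cells. The last group lay below both others, at -1.43 ± 0.20 against WT (adjusted p = 5.04e-04) and -1.11 ± 0.20 against Rela-/-Nfkb2-/- cells (adjusted p = 0.00263). Mcm4, a subunit of the helicase, read 13.32 and 13.25 in WT cells, 13.52 and 13.23 in Rela-/-Nfkb2-/- cells, and 12.77 and 12.62 in Rela-/-Relb-/-Rel-/- cells, a difference of -0.59 ± 0.18 (adjusted p = 0.0313) from WT and -0.69 ± 0.18 (adjusted p = 0.0185) from the other mutant line. Mcm5 read 12.38 and 12.60 in WT cells, 11.97 and 12.07 in Rela-/-Nfkb2-/- cells, and 12.02 and 11.98 in Rela-/-Relb-/-Rel-/- cells. It passed the test only in Rela-/-Relb-/-Rel-/- cells (-0.49 ± 0.15, adjusted p = 0.0345), although the difference in Rela-/-Nfkb2-/- cells was of nearly the same size (-0.47 ± 0.15, adjusted p = 0.0626), and Mcm2 passed only in Rela-/-Nfkb2-/- cells (-0.60 ± 0.17, adjusted p = 0.0342). Cdc6, the other loading factor, read 7.68 and 7.81 in WT cells, 7.21 and 8.25 in Rela-/-Nfkb2-/- cells, and 7.70 and 8.72 in Rela-/-Relb-/-Rel-/- cells. The sliding clamp gene Pcna read 6.99 and 6.92, 6.85 and 7.22, and 6.98 and 7.64 in the same groups. Replicate 2 was above replicate 1 in both mutant lines for these genes, as it was for the clamp loader gene Rfc4 and the centriole kinase gene Plk4, and none of the 4 passed a test between untreated groups without the replicate block. With it Plk4 was lower in Rela-/-Relb-/-Rel-/- cells than in WT (-0.97, adjusted p = 0.00400) and than in Rela-/-Nfkb2-/- cells (-0.67, adjusted p = 0.0225).

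Among the nucleotide genes, Rrm1, the large subunit of ribonucleotide reductase, rose in Rela-/-Relb-/-Rel-/- cells. It read 12.04 and 11.98 in untreated WT cells, 11.74 and 11.33 in Rela-/-Nfkb2-/- cells, and 12.70 and 12.71 in Rela-/-Relb-/-Rel-/- cells. The difference was 0.70 ± 0.22 (adjusted p = 0.0335) from WT and 1.17 ± 0.22 (adjusted p = 0.00305) from Rela-/-Nfkb2-/- cells. Its partner subunit Rrm2 read 10.40 and 10.53, 10.22 and 9.69, and 10.23 and 10.19 in the same groups, and did not pass a test, nor did the thymidine kinase gene Tk1 at 11.17 and 11.40, 10.96 and 10.63, and 11.33 and 11.12. The difference between Rrm1 and Rrm2 was not tested.

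In untreated cells 13 of 14 G2/M members were lower than WT in each mutant line. Falls were called for 7 of 14 in Rela-/-Relb-/-Rel-/- cells, beside 20.5% of all features. In Rela-/-Nfkb2-/- cells 2 of 14 falls were called, near the 10.6% of all features. Between the lines 0 of 14 members were called, beside 15.8% of all features that were higher and 17.8% that were lower. Top2a, the topoisomerase that untangles chromosomes, read 12.14 and 12.29 in untreated WT cells, 11.31 and 11.09 in Rela-/-Nfkb2-/- cells, and 11.43 and 11.12 in Rela-/-Relb-/-Rel-/- cells. It was lower in both lines (-1.01 ± 0.20, adjusted p = 0.00630, and -0.94 ± 0.20, adjusted p = 0.00523). Survivin (Birc5), a subunit of the chromosomal passenger complex, read 11.49 and 11.91, 10.82 and 10.43, and 11.29 and 11.05 in these groups, and passed only in Rela-/-Nfkb2-/- cells (-1.07 ± 0.25, adjusted p = 0.0155). Cdc20, the activator of the anaphase-promoting complex, read 12.01 and 12.19, 11.92 and 11.36, and 11.47 and 11.24, and passed only in Rela-/-Relb-/-Rel-/- cells (-0.75 ± 0.23, adjusted p = 0.0300). Its 4 probes gave -0.95 to -0.17 there, and the call was lost with their mean. Cdc25b, the phosphatase that activates Cdk1, read 8.40 and 8.78, 8.10 and 7.69, and 7.25 and 6.79. Its fall in Rela-/-Relb-/-Rel-/- cells (-1.57 ± 0.32, adjusted p = 0.00434) was the largest among the members. Cyclin A2 (Ccna2), near background throughout, read 6.40 and 6.53, 6.05 and 6.32, and 5.50 and 5.95, and fell in Rela-/-Relb-/-Rel-/- cells (-0.74 ± 0.24, adjusted p = 0.0378). It was above background on 1 of those 2 arrays, so this value is not well measured, and the call held under 3 of 8 other settings. Cdk1 itself read 12.13 and 12.08, 11.87 and 11.44, and 11.51 and 11.62, with both mutant lines below WT on each array and no adjusted p under 0.05.

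Further falls in untreated Rela-/-Relb-/-Rel-/- cells were those of the spindle checkpoint kinase Bub1b (-1.33 ± 0.32, adjusted p = 0.0106), the cytokinesis kinesin Kif23 (-1.12 ± 0.35, adjusted p = 0.0312) and the centromeric histone Cenpa (-0.50 ± 0.17, adjusted p = 0.0488). Bub1b read 9.81 and 10.18 in WT cells and 8.96 and 8.37 in Rela-/-Relb-/-Rel-/- cells. The 9.58 and 9.27 of Rela-/-Nfkb2-/- cells lay between them.

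Polo-like kinase 1 (Plk1), which drives entry into mitosis, stood apart from the other G2/M genes. Its only probe read 5.69 and 5.70 in untreated and 5.71 and 5.43 in TNF-treated WT cells, where it was not above background on any of 4 arrays. It read 11.67 and 11.13 in untreated Rela-/-Nfkb2-/- and 11.21 and 10.98 in untreated Rela-/-Relb-/-Rel-/- cells. The probe's signal in the mutant lines was at least 46.2-fold and at least 37.4-fold higher, a bound that sets the mean of the brighter group against the lowest signal that counted as above background on each WT array, or the probe's own signal where that was higher. Since Plk1 passed the detection filter only through the mutant groups, these values are a description, and the sequence of the probe was not examined here, so that what it reads in each line was not tested. On the brightest probe of each gene, no other member changed by more than 3-fold between untreated groups, although other probes of Ccnd1 (to -1.80 on the log2 scale) and Mcm6 (to -4.05) did. Cdk1, Cdc20 and Cenpa, which are mitotic genes as well, were far above background in WT cells.

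**Figure D2:**
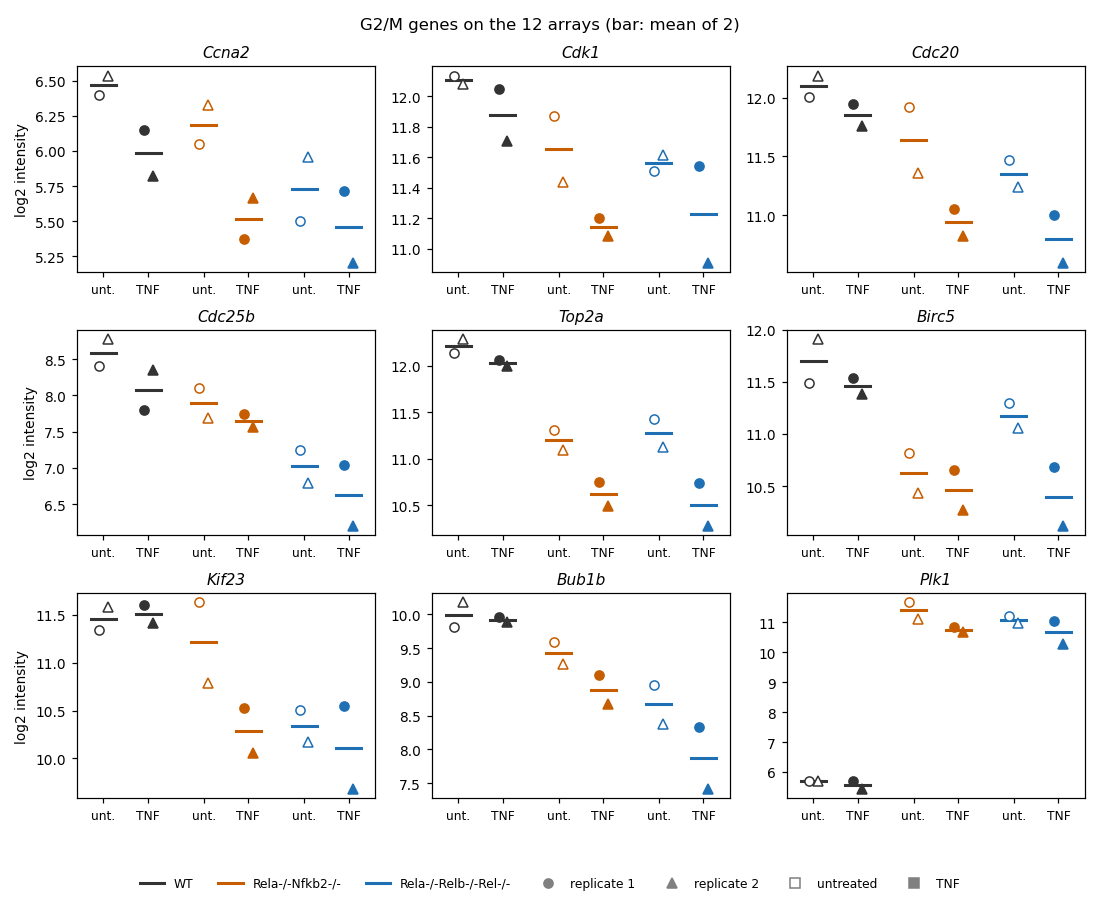
Log2 intensity (y axis) of 9 G2/M members in the untreated (open) and TNF-treated (filled) arrays of each genotype (x axis), with circles for replicate 1, triangles for replicate 2 and a bar at the mean of 2. Top2a read 12.00 to 12.29 on the WT and 10.28 to 11.43 on the mutant arrays, while Plk1 read 5.43 to 5.71 in WT and 10.27 to 11.67 in mutant cells.

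Counted over the list, 3 of 36 members rose, Plk1 included, and 5 fell in untreated Rela-/-Nfkb2-/- against WT cells, beside 9.85% of all features that were higher and 10.6% that were lower. The 5 that fell were 3 of 22 G1/S and 2 of 14 G2/M members, a share close to that of all features. In untreated Rela-/-Relb-/-Rel-/- cells 3 members, again with Plk1, rose and 12 fell, beside 17.2% and 20.5% of all features. There 5 of 22 G1/S members fell, close to that share, and 7 of 14 G2/M members, above it. The median difference was -0.72 over the G2/M and -0.21 over the G1/S members, against -0.02 over all features. In Rela-/-Nfkb2-/- cells these medians were -0.46, -0.16 and -0.02, and 13 of 14 G2/M members were below WT in each line, Plk1 being the exception. Both comparisons share the untreated WT arrays. Between the mutant lines 2 members rose and 4 fell in Rela-/-Relb-/-Rel-/- relative to Rela-/-Nfkb2-/- cells, beside 15.8% and 17.8% of all features, and all 6 were G1/S members, with a median of -0.30 over the G2/M members. With the replicate number as a block, 3 members rose and 9 fell between these lines, among them the G2/M members Birc5, which was higher, and Cdc25b, Bub1b, Plk4 and Kif23, which were lower. The share of all features called with that block is not given here, so these counts are not read as particular to the members.

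In whole-culture RNA, fewer cells in a phase and less RNA per cell cannot be told apart. The epithelial keratins Krt8 and Krt14, but not Krt18, were above background in the same Rela-/-Relb-/-Rel-/- arrays in which the G2/M members were low, and their part in that result was not tested. The 7 G2/M members that fell in these cells numbered 2 without WT replicate 2, 3 without WT replicate 1 or without either of the untreated Rela-/-Relb-/-Rel-/- arrays, 2 when arrays were scaled by their medians and 0 by the methods' t-test. In Rela-/-Nfkb2-/- cells the 8 calls numbered 5 without untreated WT replicate 1 and 4 without replicate 2.

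**Figure D3:**
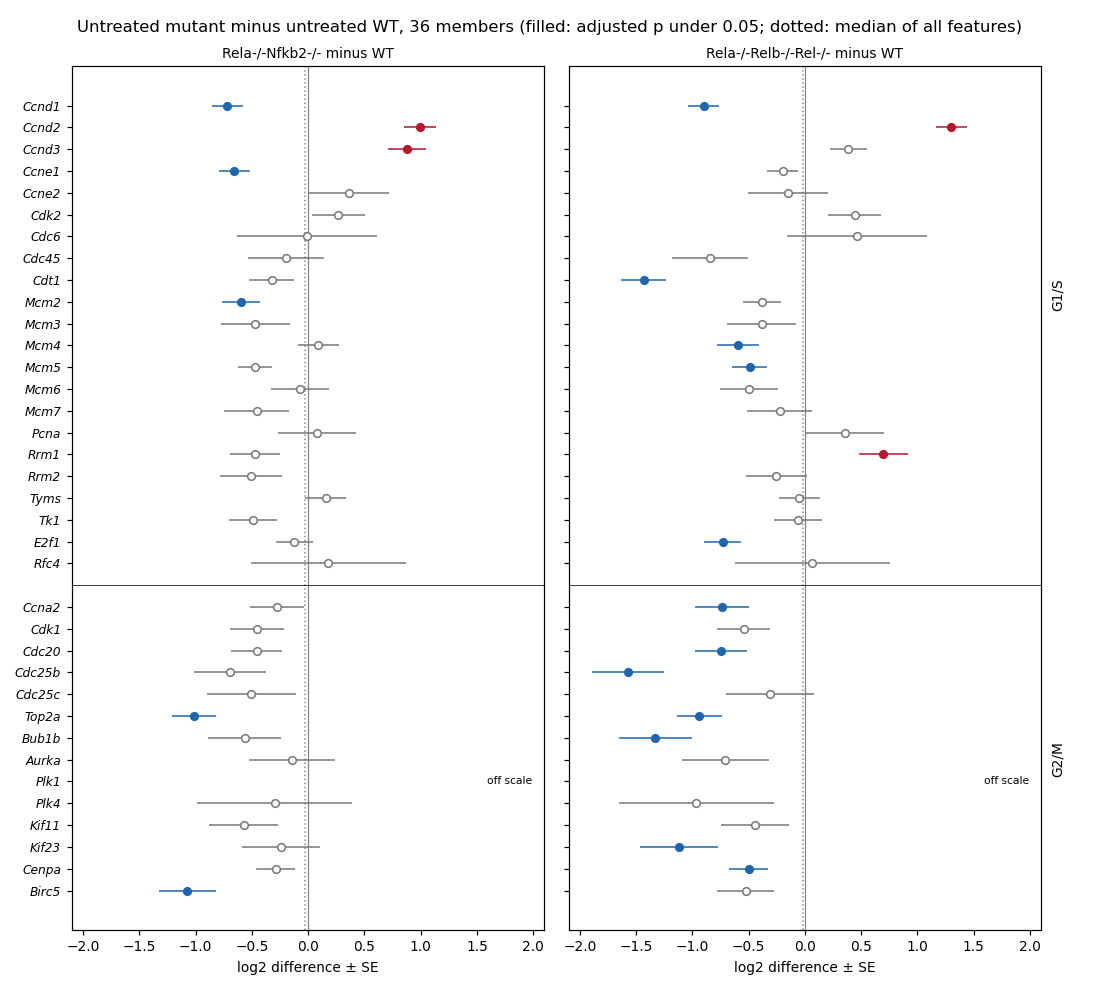
Log2 difference between untreated mutant and untreated WT cells (x axis, ± SE) for the 36 members (y axis), with filled points for an adjusted p under 0.05, a line between G1/S and G2/M members and a dotted line at the median of all features. The G2/M points lie left of 0 in both panels except Plk1, whose difference is beyond the axis and is marked as off scale.

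TNF gave no call among the members in WT cells, where 0 of 36 rose and 0 fell, beside 0.857% and 0.339% of all features. At an unadjusted p under 0.05 there were 3 members, Ccnd2 (0.45 ± 0.14, adjusted p = 0.267), Mcm2 (-0.49 ± 0.17, adjusted p = 0.301) and Mcm6 (-0.67 ± 0.26, adjusted p = 0.395), and DNA replication and mitosis genes alike stayed short of the threshold. The signs leaned one way, since 33 of 36 members were lower after TNF. The median was -0.20 over the G1/S and -0.24 over the G2/M members, against -0.04 over all features. By replicate number, 9 of 14 G2/M members were lower in replicate 1 and 14 of 14 in replicate 2. Ccnd2 read 12.34 and 12.34 without and 12.88 and 12.69 with TNF, and its groups did not overlap.

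In Rela-/-Nfkb2-/- cells TNF raised the G1 cyclin genes Ccne1, Ccnd1 and Ccnd2 and lowered Ccnd3, E2f1 and the replication genes Mcm4, Mcm6, Cdt1 and Tk1. Thus 3 members rose (8.33%, near the 8.03% of all features) and 6 fell (16.7%, beside 11.6% of all features). In this fit all 9 were G1/S members. Of 9 other settings, the call held under 3 for Mcm6, 5 for Cdt1 and Tk1, 7 for E2f1 and 6 for each of the rest. All 9 calls were lost when the compared groups were fitted alone. Ccne1 read 6.95 and 7.02 untreated and 8.04 and 8.11 with TNF, a rise of 1.09 ± 0.14, or 2.12-fold (adjusted p = 0.00107), which took it above the 7.35 to 7.66 of the WT arrays. Ccnd1 read 13.80 and 13.64 untreated and 14.51 and 14.38 with TNF, a rise of 0.72 ± 0.14 (adjusted p = 0.00760) to the range of WT cells, and its 3 probes gave 0.72 to 1.68. Ccnd2 read 13.40 and 13.27 untreated and 13.88 and 13.77 with TNF (0.49 ± 0.14, adjusted p = 0.0395). Ccnd3 went the other way, from 12.93 and 12.79 to 12.00 and 11.88 (-0.92 ± 0.17, adjusted p = 0.00568), on its brightest probe alone, the other probe giving 0.05. For Ccne1, Ccnd1 and Ccnd3 the untreated arrays entering here are those that set these genes apart from WT above.

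The 5 further falls were those of Mcm4, from 13.52 and 13.23 to 12.59 and 12.50 (-0.83 ± 0.18, adjusted p = 0.0138), Mcm6, from 11.75 and 11.13 to 10.64 and 10.49 (-0.88 ± 0.26, adjusted p = 0.0437), and Tk1, Cdt1 and E2f1. Tk1 read 10.96 and 10.63 untreated and 10.26 and 9.88 with TNF (-0.73 ± 0.21, adjusted p = 0.0418). Cdt1 read 11.62 and 11.85 untreated and 10.84 and 11.26 with TNF (-0.68 ± 0.20, adjusted p = 0.0449). E2f1 read 11.56 and 11.92 untreated and 11.02 and 11.12 with TNF (-0.67 ± 0.16, adjusted p = 0.0202), so that for these genes no treated array reached an untreated one. Mcm5, at 11.97 and 12.07 against 11.51 and 11.52, missed the threshold (-0.50 ± 0.15, adjusted p = 0.0512), and so did Rrm2, at 10.22 and 9.69 against 9.47 and 9.06 (-0.69 ± 0.27, adjusted p = 0.112).

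None of the 14 G2/M members was called in Rela-/-Nfkb2-/- cells after TNF, but all 14 were lower, with a median of -0.57, against -0.50 over the G1/S members and 0.00 over all features. Cdc20 read 11.92 and 11.36 untreated and 11.06 and 10.82 with TNF (-0.70 ± 0.23, adjusted p = 0.0608), and Top2a 11.31 and 11.09 against 10.75 and 10.49 (-0.58 ± 0.20, adjusted p = 0.0734). Cdk1 read 11.87 and 11.44 against 11.20 and 11.08, and Plk1 11.67 and 11.13 against 10.84 and 10.68. In each of these genes the treated arrays lay below the untreated arrays. The groups overlapped for Birc5, at 10.82 and 10.43 untreated against 10.65 and 10.27 with TNF, and for Aurka, Cdc25b and Plk4. The share of all features without overlap is not given here, so the order of the arrays is a description. Ccna2 was not above background with TNF and was at least 1.15-fold lower (adjusted p = 0.0824). With the replicate number as a block the count came to 3 members that rose and 16 that fell, 7 of them G2/M members (Cdc20, Cdc25c, Top2a, Bub1b, Plk1, Kif11 and Kif23). The share of all features called with the block is not given here, so this count is not read as particular to the members. The 9 calls numbered 5 without any 1 of the 4 WT arrays, 4 without untreated replicate 1 or TNF replicate 2 of the same line and 2 without its TNF replicate 1. Scaling by medians lowered the median of all features to -0.28, and 0 members then rose and 5 fell, while all features split into 207 higher and 1319 lower in place of 805 and 1168.

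In Rela-/-Relb-/-Rel-/- cells 0 members rose and 1 fell after TNF, beside 1.39% and 0.798% of all features. This was Tk1, which read 11.33 and 11.12 untreated and 10.30 and 9.91 with TNF, a difference of -1.12 ± 0.21 (2.18-fold, adjusted p = 0.0330). Its 2 probes gave -1.12 and -0.95. Without any 1 of the 4 WT arrays, either TNF-treated Rela-/-Nfkb2-/- array, either untreated Rela-/-Relb-/-Rel-/- array or TNF replicate 2 of that line, this call was lost. Ccnd1 read 13.51 and 13.57 untreated and 13.27 and 13.39 with TNF, and Ccne1 7.40 and 7.50 against 7.49 and 7.45, where the rises seen in the other mutant line were not found. All 14 G2/M members were again lower, with a median of -0.42, against -0.34 over the G1/S members and -0.01 over all features. Top2a came nearest to the threshold, at 11.43 and 11.12 untreated and 10.73 and 10.28 with TNF (-0.77 ± 0.20, adjusted p = 0.0928), followed by Birc5, at 11.29 and 11.05 against 10.68 and 10.12 (-0.78 ± 0.25, adjusted p = 0.166). With the replicate number as a block 5 members fell, namely Tk1, Top2a, Bub1b, Kif11 and Birc5. This count too is given without the share of all features under the block and is not read as particular to the members. By replicate number, 10 of 14 G2/M members were lower in replicate 1 and 14 of 14 in replicate 2.

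**Figure D4:**
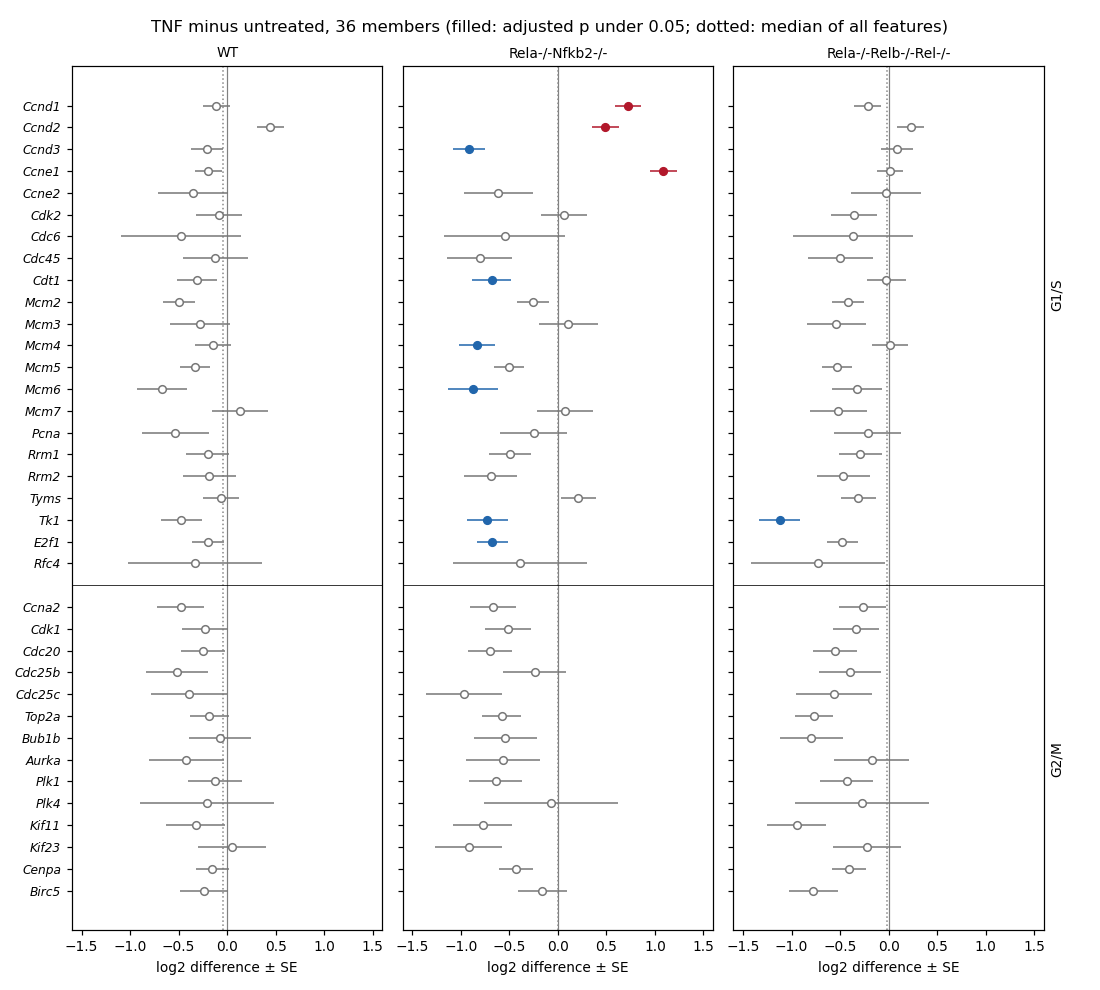
Log2 difference between TNF-treated and untreated cells (x axis, ± SE) for the 36 members (y axis) in each genotype, with filled points for an adjusted p under 0.05, a line between G1/S and G2/M members and a dotted line at the median of all features. WT cells have 0 filled points, Rela-/-Nfkb2-/- cells 9 and Rela-/-Relb-/-Rel-/- cells 1, all of them G1/S members. The fit shown has no replicate block, and with a block G2/M members were called as well in both mutant lines. All G2/M points lie left of 0 in both mutant lines, and 13 of 14 do in WT cells.

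The differences between the responses were tested as such. The response of Ccne1 in Rela-/-Nfkb2-/- cells (1.09) exceeded that in WT cells (-0.19) by 1.28 ± 0.20 (adjusted p = 0.00968). The response of the same gene in Rela-/-Relb-/-Rel-/- cells (0.01) differed from that in Rela-/-Nfkb2-/- cells by -1.07 ± 0.20 (adjusted p = 0.0173). Ccne1 was the 1 member called against WT, with 0 lower, beside 1.17% and 2.92% of all features, and Ccnd1 came near it (0.83 ± 0.20, adjusted p = 0.0518) and was the second member called with the replicate number as a block (adjusted p = 0.0345). Between the mutant lines 1 member was higher and 2 lower, beside 3.65% and 1.33% of all features. These were Ccnd3, whose response differed by 1.00 ± 0.23 (adjusted p = 0.0462), Ccne1, and Ccnd1, at -0.94 ± 0.20 (adjusted p = 0.0304). The other Ccnd3 probe had the opposite sign (-0.39), and with the mean of both the call was lost (0.30, adjusted p = 0.469). Between Rela-/-Relb-/-Rel-/- and WT cells 0 members were higher and 0 lower, beside 0.439% and 0.409% of all features, and 0 members had an unadjusted p under 0.05. No G2/M member was called in any of the 3 differences, so the responses of these genes were not shown to differ between genotypes.

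The Ccne1 difference from WT was lost without untreated or TNF-treated WT replicate 2 or TNF-treated Rela-/-Nfkb2-/- replicate 2. The 3 calls between the mutant lines numbered 0 without either TNF-treated Rela-/-Nfkb2-/- or either untreated Rela-/-Relb-/-Rel-/- array, 1 without any 1 of the 4 WT arrays, untreated Rela-/-Nfkb2-/- replicate 2 or TNF-treated Rela-/-Relb-/-Rel-/- replicate 1, and 0 after scaling by medians.

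Seen by array, the median of the 14 G2/M members, each centred on its mean over the 12 arrays, was 0.52 and 0.75 in untreated and 0.43 and 0.28 in TNF-treated WT cells. It was 0.44 and -0.06 without and -0.36 and -0.48 with TNF in Rela-/-Nfkb2-/- cells, and -0.08 and -0.03 without and -0.33 and -0.85 with TNF in Rela-/-Relb-/-Rel-/- cells. The 4 WT arrays and replicate 1 of untreated Rela-/-Nfkb2-/- cells were the 5 highest, and the 4 TNF-treated mutant arrays were the lowest. The same median over the 22 G1/S members was 0.13 and 0.35, 0.17 and -0.13, 0.09 and 0.05, -0.31 and -0.22, 0.04 and 0.03, and -0.29 and -0.40 in the same order. It too was lowest on the 4 TNF-treated mutant arrays.

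**Figure D5:**
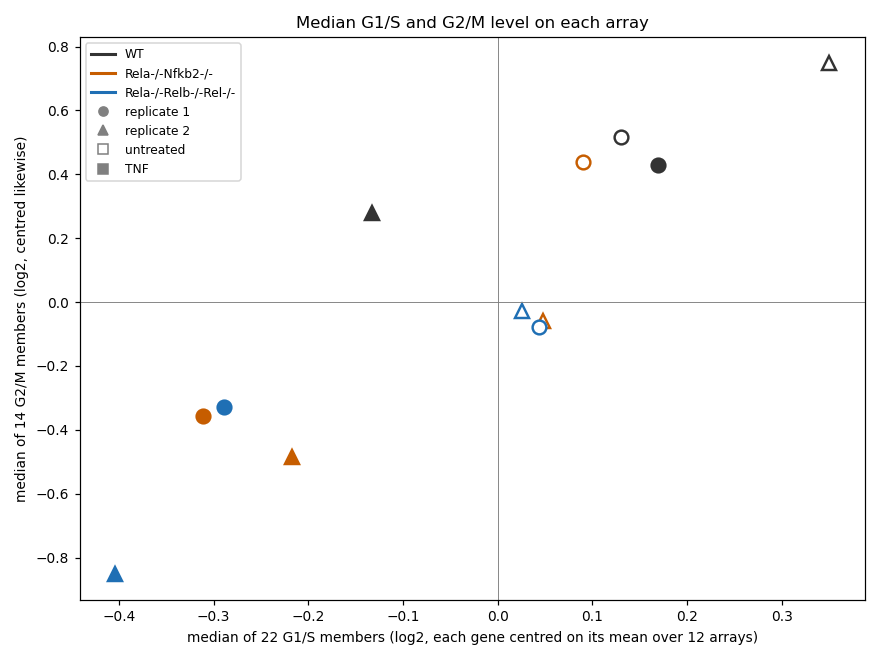
Median log2 level of the 22 G1/S members (x axis) and of the 14 G2/M members (y axis) on each of the 12 arrays, after each gene was centred on its mean over all arrays, with open symbols for untreated and filled symbols for TNF-treated cells, circles for replicate 1 and triangles for replicate 2. The 4 TNF-treated mutant arrays lie lowest on both axes, and the untreated WT arrays have the highest G2/M medians, 0.52 and 0.75.

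Other genes of the same machinery, from lists that do not overlap the members, were counted in the same way. Of 8 CDK inhibitors and pocket proteins, which hold the cycle back, 7 were tested. In untreated Rela-/-Nfkb2-/- cells 1 rose and 2 fell (14.3% and 28.6%, beside 9.85% and 10.6% of all features). The rise was that of p57 (Cdkn1c), at least 12.9-fold above WT. Its probe was above background on the 4 Rela-/-Nfkb2-/- arrays alone and passed the filter through them, so this rise is a description. The falls were those of p21 (Cdkn1a, -1.03 ± 0.15, adjusted p = 0.00130) and p18 (Cdkn2c, -1.17 ± 0.22, adjusted p = 0.00539). TNF then gave 1 rise, Cdkn1a (0.73 ± 0.15, adjusted p = 0.0109), and 3 falls, among them Cdkn1c (-2.13 ± 0.36, adjusted p = 0.00444). These counts were 14.3% and 42.9% of the list, beside 8.03% and 11.6% of all features. In untreated Rela-/-Relb-/-Rel-/- cells 0 rose and 2 fell (28.6%), beside 17.2% and 20.5% of all features. The falls were those of Cdkn2c (-1.31 ± 0.22, adjusted p = 0.00155) and Cdkn1a (-0.59 ± 0.15, adjusted p = 0.0140). After TNF 0 passed there, beside 1.39% and 0.798% of all features, or in WT cells, beside 0.857% and 0.339%.

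Of 16 transcription factors of the cycle 13 were tested. Foxm1, an activator of the mitotic wave, was lower in untreated Rela-/-Nfkb2-/- (-1.18 ± 0.19, adjusted p = 0.00244) and Rela-/-Relb-/-Rel-/- cells (-1.20 ± 0.19, adjusted p = 0.00113) and fell further with TNF in Rela-/-Nfkb2-/- cells (-0.83 ± 0.19, adjusted p = 0.0175). E2f2 was lower in untreated Rela-/-Nfkb2-/- (-1.24 ± 0.16, adjusted p = 6.66e-04) and higher in untreated Rela-/-Relb-/-Rel-/- cells (0.72 ± 0.16, adjusted p = 0.00798). Myc, an activator of growth and of G1 cyclins, rose with TNF in Rela-/-Nfkb2-/- cells (1.69 ± 0.19, adjusted p = 6.17e-04) and, by at least 2.21-fold, in Rela-/-Relb-/-Rel-/- cells (adjusted p = 0.00495). Its response in Rela-/-Nfkb2-/- cells exceeded that of WT by 1.37 ± 0.27 (adjusted p = 0.0296). Over this list 1 rose and 3 fell (7.69% and 23.1%) in each untreated line against WT. Beside them 9.85% and 10.6% of all features were called in Rela-/-Nfkb2-/- cells, and 17.2% and 20.5% in Rela-/-Relb-/-Rel-/- cells. TNF gave 3 rises and 2 falls (23.1% and 15.4%, beside the same 8.03% and 11.6%) in Rela-/-Nfkb2-/- cells. It gave 1 rise in Rela-/-Relb-/-Rel-/- cells (7.69%, beside 1.39% of all features) and 0 calls in WT cells.

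Among 27 tested replication genes outside the list, 0 rose and 1 fell (3.70%) in untreated Rela-/-Nfkb2-/- cells, beside 9.85% and 10.6% of all features. The fall was that of the polymerase subunit gene Pold2 (-1.23 ± 0.20, adjusted p = 0.00255). In untreated Rela-/-Relb-/-Rel-/- cells 1 rose and 7 fell (25.9%, near the 20.5% of all features), with the largest falls in the DNA ligase gene Lig1 (-1.25 ± 0.30, adjusted p = 0.0101) and the chromatin assembly gene Chaf1a (-1.23 ± 0.24, adjusted p = 0.00307). TNF gave 3 rises and 6 falls (11.1% and 22.2%, beside 8.03% and 11.6% of all features) in Rela-/-Nfkb2-/- cells and 0 calls in the other genotypes. The falls included the origin-firing gene Gins4 (-0.94 ± 0.22, adjusted p = 0.0184) and Pold1 (-0.88 ± 0.20, adjusted p = 0.0146), while Cdk6, a partner of the D-type cyclins, rose at least 1.92-fold (adjusted p = 0.0273). Its treated arrays stood apart, at 7.29 and 6.15. The second was near the lowest signal above background on that array (5.94), so this bound is not well measured.

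Among 21 tested mitosis genes outside the list, 0 rose in any untreated mutant line against WT. In Rela-/-Nfkb2-/- cells 2 fell (9.52%, near the 10.6% of all features). In cells without RelA, RelB and cRel 11 fell (52.4%), beside the same 20.5% of all features. The largest of these 11 falls were those of the kinesin Kif4 (-1.69 ± 0.23, adjusted p = 3.80e-04), the centromere gene Cenpn (-1.53 ± 0.23, adjusted p = 7.19e-04) and the spindle bundling gene Prc1 (-1.03 ± 0.19, adjusted p = 0.00246). The median of this list in Rela-/-Relb-/-Rel-/- cells was -0.76, near the -0.72 of the 14 G2/M members. With TNF 5 of the 21 fell in Rela-/-Nfkb2-/- cells (23.8%, beside 11.6% of all features), led by the kinetochore gene Ndc80 (-1.27 ± 0.21, adjusted p = 0.00355). In Rela-/-Relb-/-Rel-/- cells 1 fell (4.76%, beside 0.798% of all features), the condensin gene Ncapd2 (-1.26 ± 0.24, adjusted p = 0.0329), and in WT cells 0 fell. Between the untreated mutant lines 0 inhibitors rose and 1 fell (Cdkn1c, which passed the filter through the brighter line alone), and the counts were 1 and 2 for the transcription factors, 1 and 4 for the replication genes and 1 and 2 for the mitosis genes. Of all features 15.8% were higher and 17.8% lower in that comparison. These lists, like the members, were read on the same arrays and are no independent replicate of them.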

How the data were processed

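Total RNA of 12 MEF samples, 2 in each of 6 groups, was labelled and hybridized to Illumina MouseRef-8 v2.0 arrays by a service company. The deposited raw values are bead signal intensities per probe as exported by GenomeStudio (version not given in the sources used here), without normalization or background subtraction, and the deposited detection p-value of each probe was computed by the same software before deposit. The authors also deposited background-subtracted, quantile-normalized intensities on a linear scale, which were used as an alternative after a floor of 16 and a log2 transformation. No column of array values was left unused.

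Raw intensities were corrected with neqc (normexp from the detection p-values, offset 16, quantile normalization) in limma 3.58.1 under R 4.3.3. The offset shrinks ratios of dim probes, and quantile normalization removes a shift shared by most genes. Of 25697 probes, 23978 had 1 gene symbol, 0 several and 1719 none, and 23962 could be looked up in the GRCm38.p6 gene table through their Entrez identifier, which changed 0 symbols. The detection filter asked for p-values under 0.05 in both replicates of at least 1 group, which 13387 probes met. The brightest probe was taken for the 2443 genes with several, which left 10031 features, 9251 named genes and 780 unnamed probes. All 12 arrays were fitted with 1 mean per group by lmFit with eBayes moderation, which left 6 residual degrees of freedom beside 2.92 from the prior. The fit gave 9 comparisons, each with Benjamini-Hochberg adjustment over all its features and a threshold of 0.05. The number of arrays limits the precision. On simulated data for the TNF comparison in Rela-/-Nfkb2-/- cells (10031 features), 46% of 100 genes changed by 1 on the log2 scale and 78% of 100 changed by 2 were called. The simulated noise was independent between arrays, with 1 spread per gene averaged over the 6 groups. Real Rela-/-Nfkb2-/- replicates stood further apart than those of WT and shared replicate differences, so these shares need not hold for them.

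Replicate differences of untreated and TNF-treated arrays with the same number correlated within each genotype (r = 0.31 in WT, 0.67 and 0.70 in the mutant lines), between WT and mutant groups at -0.19 to 0.00, and between the mutant lines at 0.62 to 0.85. No source gives this pairing, which rests on the data. Alternatives were no background correction, median scaling, the authors' values, averaging the probes of a gene, a stricter or no filter, the compared groups alone, a plain 2-sided t-test (the methods' t-test), a replicate block within genotype and leaving out each array.

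The members, gene lists and motifs were chosen with earlier results of these data known. Every member that passed the detection filter could be named. Values by array, though not for every group, were given for fixed phase markers and for the members with the largest called changes. They were also given for further members chosen after their values were seen. The TNF-treated values of the fixed markers Ccne2, Cdc6 and Pcna, which passed no TNF test, are left out. Those of other markers, such as Birc5 and Mcm5, are given in part. Non-members came from fixed lists, at most 4 per list and comparison. Promoter windows were read from a RefSeq table (GRCm38.p6).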

Additional observations from a re-analysis of the deposited data

Results flagged for a closer look

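Results named here are those in which a test of the difference between the TNF responses of 2 genotypes passed the threshold. The response of Ccne1 was larger in Rela-/-Nfkb2-/- than in WT cells by 1.28 on the log2 scale, and the response of the same gene in Rela-/-Relb-/-Rel-/- cells differed from that in Rela-/-Nfkb2-/- cells by -1.07. For Ccnd1 the difference between the mutant lines was -0.94. For Ccnd3 it was 1.00 on the brightest of its 2 probes and -0.39 on the other, and the call was lost with their mean. The untreated level of each of these genes in Rela-/-Nfkb2-/- cells enters both the genotype and the response comparison.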

How the results depend on the processing

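Counts are members called by limma (Benjamini-Hochberg), with the setting named. The shares of all features called under the other settings are mostly not given here. A change in a count is therefore not read as particular to the members. In the order TNF in Rela-/-Nfkb2-/- cells (9 calls as reported), TNF in Rela-/-Relb-/-Rel-/- cells (1), untreated Rela-/-Nfkb2-/- against WT (8), untreated Rela-/-Relb-/-Rel-/- against WT (15) and the untreated mutant lines (6), median scaling gave 5, 0, 2, 6 and 3 calls and the methods' t-test with adjustment 0, 0, 0, 5 and 0. The differences of responses were not put to the t-test. Fitting the compared groups alone gave 0 calls for TNF in either mutant line, 3 for Rela-/-Nfkb2-/- against WT and 2 between the mutant lines. A replicate block within genotype gave 19 and 5 calls for TNF in the mutant lines and 12 between the untreated lines. For the differences of responses, Rela-/-Nfkb2-/- against WT (1 call) gave 2 calls without background correction, without a filter, with the mean of a gene's probes or with the replicate block, and 0 with median scaling, and the mutant lines (3 calls) gave 0 with median scaling or the compared groups alone.

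A pair of settings was chosen after seeing the data, and the share of all features called is not given for them. A replicate block shared by the mutant lines gave 21, 5, 14, 23 and 13 calls in the order above and 5 for the response difference of Rela-/-Nfkb2-/- and WT cells. The arrays of the mutant lines alone gave 4 calls for TNF in Rela-/-Nfkb2-/- cells, 0 in Rela-/-Relb-/-Rel-/- cells and 0 for the difference between them. Without 1 array at a time the counts ran from 2 to 10, 0 to 1, 4 to 9, 7 to 16 and 2 to 9 in the same order, from 0 to 1 and 0 to 3 for the response differences of Rela-/-Nfkb2-/- cells from WT and between the mutant lines, and stayed at 0 for TNF in WT cells and for the response difference of Rela-/-Relb-/-Rel-/- and WT cells. No called member reversed its direction under any setting run.

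Median scaling moved the median of all features with TNF to -0.23 in WT and -0.28 in Rela-/-Nfkb2-/- cells, and that of the response differences of Rela-/-Relb-/-Rel-/- cells to 0.25 against WT and 0.33 against Rela-/-Nfkb2-/- cells. All features then split into 24 higher and 183 lower, in place of 117 and 293, for the response difference of Rela-/-Nfkb2-/- and WT cells, and into 318 and 41, in place of 366 and 133, between the mutant lines. The cause of these changes was not tested. Probes near background, such as that of Ccna2, have ratios that are shrunk and limited by their signal.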

Other observations

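The 3 probes of Mcm6 did not give 1 answer between untreated groups. They ranged from -4.05 to -0.07 on the log2 scale in Rela-/-Nfkb2-/- against WT cells, from -0.50 to 0.31 in Rela-/-Relb-/-Rel-/- against WT cells and from -0.43 to 4.36 between the mutant lines. Their TNF responses had 1 sign in each genotype, at -0.67 to -0.37 in WT, -0.88 to -0.50 in Rela-/-Nfkb2-/- and -0.62 to -0.32 in Rela-/-Relb-/-Rel-/- cells.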
